A study of Mus musculus with 8 samples.

Results

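The Hes and Hey genes encode transcriptional repressors, and 8 of them were followed in mouse embryonic stem cells (ESC) and neural progenitor cells (NPC). The members are Hes1, Hes3, Hes5, Hes6, Hes7, Hey1, Hey2 and Heyl, taken by gene symbol, out of 20512 named genes with exon values and 18655 with intron values. All 8 were found in both tables. The cells are the hybrid line F1-21.6 with a 129Sv-Cast/EiJ background, grown on mitotically inactivated mouse embryonic fibroblasts in serum with leukaemia inhibitory factor, and 1 NPC clone derived from that line. The NPC values therefore describe a single clone, and ESC samples may carry feeder RNA. Total RNA without ribosomal RNA was sequenced from 2 biological replicates per cell type with 2 technical libraries each, 8 libraries in all.

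Hes and Hey proteins share a basic helix-loop-helix domain and an Orange domain, bind DNA as dimers and recruit corepressors. Several of their genes are direct targets of Notch signalling. A ligand on one cell frees the intracellular part of the Notch receptor on its neighbour, which joins RBPJ and Mastermind proteins on target genes. In the developing brain Hes1 and Hes5 hold progenitors undifferentiated by repressing proneural genes such as Neurog2.

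The cell types matched their labels by their markers. All 6 tested ESC markers fell, from a summed exon level of 5484 to 12.6 RPKM (reads scaled by length and by sequencing depth), and all 6 tested neural progenitor and radial glia markers rose, from a summed 462 to 14579 RPKM. Of 8 fibroblast feeder markers, 4 fell and none rose, with a summed level of 31.0 RPKM for ESC against 10.0 for NPC. Of 6 presomitic mesoderm markers only Msgn1 reached the test, and it did not pass. Mesp2, at 1.82 RPKM in ESC and 0.0434 in NPC, averaged too low to be tested here. Its adjusted p in the authors' deposited table was 0.000105. The list had sums of 4.43 and 1.36 RPKM, and Ripply2 was listed at 0 in ESC. All 6 tested of 9 endothelial and smooth muscle markers fell, from a summed 119 to 8.63 RPKM. Recovered intron reads summed over genes to 5533455 to 6997646 per replicate. In every replicate this exceeded the read total inferred for scaling, which was 5186790 to 6500767. Where several intron lengths solved a gene the largest was taken, so these sums are upper values and not a measure of depth. On the log2(RPKM + 1) scale the median difference of NPC replicate 2 over replicate 1 was 0.42 over the tested genes, against 0.01 in ESC. In 242 olfactory, vomeronasal and taste receptor genes, which neither cell type is known to use, the median intron level was 0.748 RPKM in NPC replicate 1 and 0.0829 in NPC replicate 2, against 0.0295 and 0 in ESC replicates 1 and 2.

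As a group, the repressors went from a family led by Hes1 alone to one of 4 abundant members. Exon levels are the authors' values, 1 for each cell type, and carry no replicate spread. Summed over the 8 genes they came to 122 RPKM in ESC against 762 in NPC, a 6.25-fold difference. Hes1 made up 82.6% of the sum in ESC and 43.2% in NPC, while the share of Hey1 was 4.59% and 29.5%. The 5 Hes genes together were at 115 and 526 RPKM, a 4.59-fold difference, and the 3 Hey genes at 7.25 and 235, a 32.4-fold difference. The latter is mostly that of Hey1, which held 225 of the 235 RPKM and differed 40.2-fold, against 7.95-fold for Hey2 and 1.11-fold for Heyl. In bulk samples, fewer cells that express a gene and less RNA per cell cannot be told apart.

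**Figure D1:**
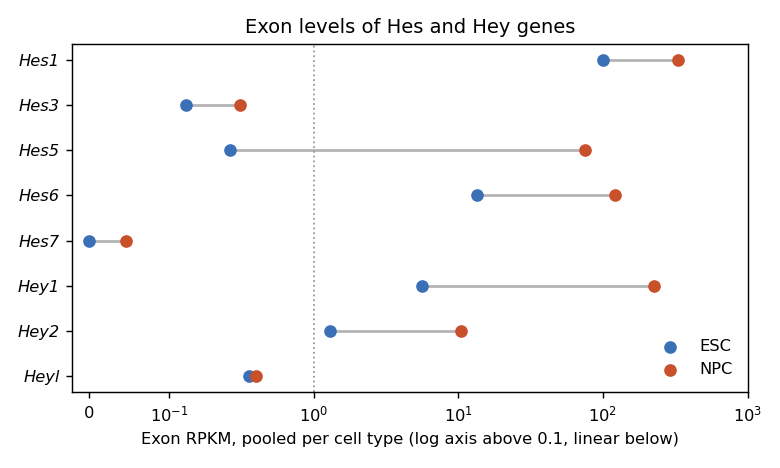
Pooled exon RPKM of each gene in ESC (blue) and NPC (red), on a log axis above 0.1 and a linear one below, with 1 value per cell type and a dotted line at 1 RPKM. Hes1, Hes5, Hes6, Hey1 and Hey2 lie above 1 RPKM in NPC, from 10.4 to 329, while Hes3, Hes7 and Heyl lie below 1 RPKM in both cell types.

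By the authors' deposited table, 5 of the 8 genes reached an average of 1 RPKM or more across ESC and NPC and entered the test, and all 5 rose at an adjusted p threshold of 0.05. Over all genes, 32.3% of 12509 tested were called higher in NPC and 33.9% lower, 66.2% in either direction. The median log2 fold change of the 5 tested genes was 3.01, against -0.07 over all tested genes. A gene could pass the filter through its NPC level alone, so the 5 are not a sample of the family. In NPC the exon levels ran in the order Hes1, Hey1, Hes6, Hes5, Hey2, Heyl, Hes3 and Hes7. In ESC the order was Hes1, Hes6, Hey1, Hey2, Heyl, Hes5, Hes3 and Hes7. Without replicate values, neighbours in these orders cannot be told apart.

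Introns, whose reads include those of unspliced transcripts, gave values for each biological replicate. The receptor genes above also had intron reads, with the highest median in NPC replicate 1. For all 8 genes the intron level in each replicate came back as a whole number of reads over an intron length, and that length equalled the summed introns of a GENCODE M21 transcript for 7 of them. For Hes6 it was 167 bp and equalled none, and for Hes3 3 lengths solved the values and the largest was taken. The 5 genes that rose in exons also had both NPC replicates above both ESC replicates in introns, and the other 3 overlapped. Over all 18655 named genes, 41.8% showed this separation, and 21.9% of the 8811 genes averaging 1 RPKM or more. The same 5 genes entered the intron test, and all 5 rose (limma on log2(RPKM + 1), adjusted p threshold 0.05). Here too a gene could pass the filter through its NPC level alone, so the 5 are not a sample of the family. Mean ESC introns were below 1 RPKM for Hes5 (0), Hes6 (0.519), Hey1 (0.933) and Hey2 (0.185). Over all genes tested in introns, 13.2% rose and 34.0% fell, 47.3% in either direction, or 1167 and 2998 genes. The median log2 fold change was 3.80 for the 5 members and -0.43 for all tested genes. Scaling the columns to one median, which removes a shift of -0.40 common to all genes, gave 2185 higher and 2165 lower, and all 5 members were higher there too.

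**Figure D2:**
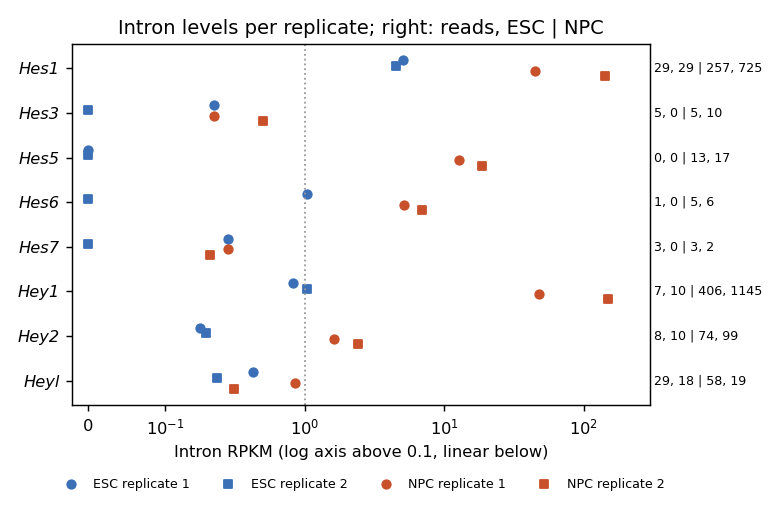
Intron RPKM of each gene in each biological replicate, on a log axis above 0.1 and a linear one below, with the recovered reads at the right (ESC replicates 1 and 2, then NPC replicates 1 and 2). Both NPC replicates lie above both ESC replicates for Hes1, Hes5, Hes6, Hey1 and Hey2, and the groups overlap for Hes3, Hes7 and Heyl.

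Hes1, the widely used Notch effector, had by far the highest exon level of the 8 genes in ESC. Its gene lies on chromosome 16 of mm9, with its start site at 30065443 on the + strand. Its exons were at 101 RPKM in ESC against 329 in NPC, and the authors' deposited table gives a log2 fold change of 1.60 (adjusted p = 2.48e-07), the smallest of the 5 tested members. Its 989 bp of introns were at 5.08 and 4.51 RPKM in ESC replicates 1 and 2, from 29 reads each, and at 44.9 and 141 RPKM in NPC replicates 1 and 2, from 257 and 725 reads. The ESC replicates were close to each other, and the NPC replicates, although both far above ESC, differed 3.15-fold. The group means were 4.80 ± 0.405 and 93.1 ± 68.2 RPKM (SD, n = 2 each). In limma the log2 fold change was 3.80 (SE 0.821, adjusted p = 0.00300). The call was lost without ESC replicate 1 (adjusted p = 0.325) or ESC replicate 2 (adjusted p = 0.362), with limma log2 fold changes of 3.87 and 3.73. Without NPC replicate 1 or 2 the log2 fold change was 4.62 or 2.99. The fibroblast feeder list was higher in ESC, as given above, and its part in the ESC level of Hes1 was not tested.

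The introns of Hes1 rose by more than its exons. The ratio of mean intron levels was 19.4 and that of exon levels 3.27, a difference of 2.57 on the log2 scale. Over 8349 genes tested in both and above 0 in each, the median difference of intron over exon change was -0.46, and 2.41% of genes were at or above the value of Hes1. With the introns of NPC replicate 1 alone the difference was 1.52 (4.91% of genes at or above it). With those of NPC replicate 2 alone it was 3.17 (0.578%). The exon ratio stayed pooled in both cases, so a difference between replicates enters on the intron side only. The mean intron level of Hes1 was 4.77% of its exon level in ESC and 28.3% in NPC, while the median over these genes went from 12.7% to 9.18%. The read totals behind the exon RPKM are unknown and may differ between cell types. These percentages therefore compare genes within a cell type and are not absolute shares of unspliced RNA. A change between cell types can be read only against that of the other genes.

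Hes5, the Notch target most closely tied to neural progenitors, had the largest exon change of the family. Its gene lies on chromosome 4, with its start site at 154335032 on the + strand. Its exons were at 0.263 RPKM in ESC against 74.8 in NPC, with a log2 fold change of 7.85 (adjusted p = 3.28e-59) in the authors' deposited table, where it ranked 55 among 12509 tested genes. Its introns span only 176 bp and gave 0 reads in both ESC replicates, against 13 and 17 in NPC replicates 1 and 2, or 12.8 and 18.6 RPKM. A count of 0 in such short introns allows up to 2.96 and 2.62 RPKM in ESC replicates 1 and 2 (3 reads, counting error only). Over both ESC replicates together the limit was 1.39 RPKM. The pooled NPC level of 15.5 RPKM, from 30 reads, was 11.2-fold this limit. That ratio leaves out the counting error of the NPC reads, so it is not a lower bound on the difference. The values of both NPC replicates lie above all of these limits. In limma the log2 fold change was 4.04 (SE 0.277, adjusted p = 2.04e-05). GENCODE lists Gm20421 on the opposite strand over Hes5, and without a stated strand setting their reads cannot be told apart.

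Hes6 differs in role from the rest, since its product is known to counteract Hes1 and to favour neuronal differentiation. Its gene lies on chromosome 1, with its start site at 93309799 on the - strand. Its exons were at 13.6 RPKM in ESC against 122 in NPC, with a log2 fold change of 3.01 (adjusted p = 6.81e-30) in the authors' deposited table. Its introns gave 1 and 0 reads in the ESC replicates against 5 and 6 in NPC replicates 1 and 2, or 1.04, 0, 5.17 and 6.93 RPKM. The groups do not overlap, but no other tested member had so few NPC intron reads. The exact Poisson interval of the 11 NPC reads together is 2.99 to 10.7 RPKM (95%, counting error only). The limma log2 fold change was 2.29 (SE 0.304, adjusted p = 0.000140), and the call was lost without ESC replicate 2 (adjusted p = 0.123). Of 7 tested markers of differentiating neurons, 2 rose and 4 fell, and their part in the level of Hes6 was not tested. The 8 listed markers summed to 277 RPKM in ESC and 426 in NPC, of which Map2 alone held 2.14 and 371.

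In NPC introns Hes5 lay above Hes6 in both replicates, although Hes6 was the higher of the pair in exons. The mean intron level was 21.0% of the exon level for Hes5 in NPC and 4.95% for Hes6. Both rest on few reads.

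Hey1, a target of Notch in vessels and in neural precursors, had the largest intron change of the family on the log2(RPKM + 1) scale. With a pseudocount of 0.1 the limma log2 fold change was larger for Hes5, at 7.28 against 6.36, and that of Hes5 has no upper bound because its ESC introns gave 0 reads. Its gene lies on chromosome 3, with its start site at 8667038 on the - strand. Its exons were at 5.59 RPKM in ESC against 225 in NPC, with a log2 fold change of 5.17 (adjusted p = 6.35e-77) in the authors' deposited table. Its 1475 bp of introns were at 0.823 and 1.04 RPKM in ESC replicates 1 and 2, from 7 and 10 reads, and at 47.5 and 150 RPKM in NPC, from 406 and 1145 reads. The NPC replicates differed 3.15-fold, the same ratio as for Hes1. That ratio of RPKM, with no pseudocount, was 1.54 at the median of the genes tested, and 2.73 at the median of the 73 genes with a mean NPC intron level of at least 40 RPKM. The limma log2 fold change was 5.47 (SE 0.706, adjusted p = 0.000122). Without ESC replicate 1 or 2 the call was lost (adjusted p = 0.129 and adjusted p = 0.121 in limma), with log2 fold changes of 5.39 and 5.55. Without NPC replicate 1 or 2 it was 6.29 or 4.65. Hes1 and Hey1 were the highest members in NPC introns, at 93.1 ± 68.2 and 98.6 ± 72.2 RPKM (SD, n = 2 each). These SDs hold the difference between replicates that both genes share. Within replicates Hey1 lay slightly above Hes1, at 47.5 against 44.9 RPKM in replicate 1 and 150 against 141 in replicate 2. The difference between the genes was not tested.

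As with Hes1, the intron change of Hey1 exceeded its exon change. The difference was 1.40 on the log2 scale, with 5.01% of the 8349 genes at or above it. Against the same pooled exon ratio, it was 0.34 with the introns of NPC replicate 1 alone (11.7%). With those of NPC replicate 2 alone it was 1.998 (2.00%). For Hes6 and Hey2 the difference was 0.37 and 0.45, with 14.7% and 13.1% of genes at or above them. The ESC introns of Hes6 gave 1 read in all, so its difference and rank are poorly determined. Hes5 has no such value, since its introns were at 0 in ESC.

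**Figure D3:**
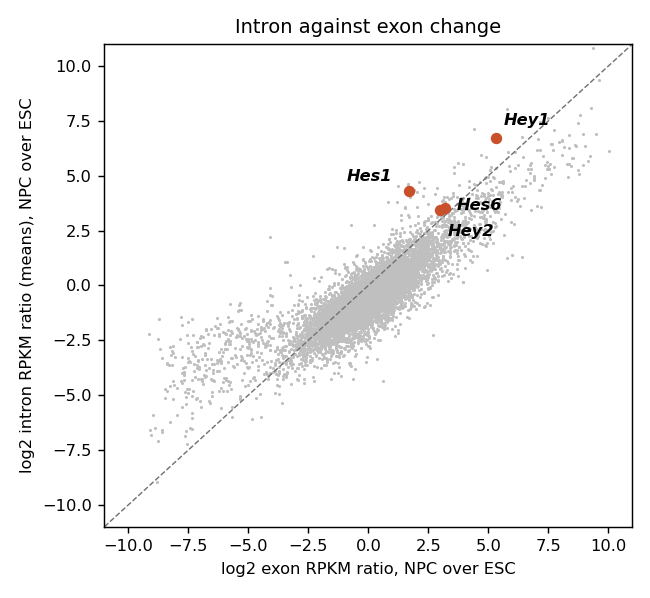
The log2 ratio of mean intron RPKM (vertical) against the log2 ratio of exon RPKM (horizontal), NPC over ESC, for 8349 genes in grey and 4 Hes and Hey genes in red, with a dashed line of equal change. Hes1 lies 2.57 above the line and Hey1 1.40 above it, while the median gene lies at -0.46.

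Hey2, which with Hey1 is best known from heart and vessel development, rose from a low level. Its gene lies on chromosome 10, with its start site at 30562589 on the - strand. Its exons were at 1.30 RPKM in ESC against 10.4 in NPC, with a log2 fold change of 2.78 (adjusted p = 8.37e-10) in the authors' deposited table. Its 7893 bp of introns were at 0.176 and 0.195 RPKM in ESC replicates 1 and 2 and at 1.62 and 2.42 RPKM in NPC, from 8, 10, 74 and 99 reads. The NPC value of replicate 1 compares with 0.748 RPKM at the median of the receptor genes in that replicate, and that of replicate 2 with 0.0829; the part of that level in the result was not tested. The limma log2 fold change was 1.34 (SE 0.191, adjusted p = 0.000228), on a scale that understates low genes, while the ratio of means was 10.9. Of 9 endothelial and smooth muscle markers 6 were tested and fell, while the untested Emcn was at 0.0223 and 0.368 RPKM and Myh11 at 0.515 and 1.14; their part in the level of Hey2 was not tested.

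With no filter on low values the intron calls of Hes1, Hes6 and Hey2 were lost (limma adjusted p = 0.0606, 0.0622 and 0.0517 over 18655 genes), and those of Hes5 and Hey1 stayed.

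Hes3, Hes7 and Heyl stayed below 1 RPKM in the pooled exons of both cell types and in the introns of every replicate. None passed the filter on the mean used here. Hes3, a repressor of early neural precursors on chromosome 4, had exon levels of 0.132 RPKM in ESC and 0.308 in NPC (log2 fold change 0.81, adjusted p = 0.701 in the authors' deposited table). Its introns gave 5 and 0 reads in ESC against 5 and 10 in NPC, or 0.224, 0, 0.224 and 0.499 RPKM, so the groups overlap. Hes7, an oscillating repressor of the segmentation clock in presomitic mesoderm, was listed at 0 RPKM in ESC exons and at 0.0463 in NPC exons on chromosome 11, with no adjusted p in the authors' deposited table. Its introns gave 3, 0, 3 and 2 reads in the same order, or 0.282, 0, 0.281 and 0.209 RPKM, again with overlap. GENCODE lists 9130213A22Rik on the opposite strand over Hes7. Heyl, a Hey gene of vessels and muscle on chromosome 4, was at 0.359 and 0.400 RPKM in exons (log2 fold change 0.01, adjusted p = 0.995 in the authors' deposited table). Its introns were at 0.427 and 0.235 RPKM in ESC and at 0.850 and 0.311 in NPC, from 29, 18, 58 and 19 reads. Only NPC replicate 1 stood out for Heyl, at a level close to the 0.748 RPKM of the receptor genes there. In exons the median receptor gene stood at 0 RPKM in ESC against 0.279 in NPC, which is near the NPC levels of Hes3 and Heyl.

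Promoters of 4 members, Hes5, Hes6, Hes7 and Hey2, were found in RefSeq windows of build GRCm38.p6, and Hes1, Hes3, Hey1 and Heyl were not matched. All 4 members with a window are shown. They include members that rose with and without the core letters of an RBPJ site, GTGGGAA, and a member that stayed near 0. Each line gives the 250 bases before the start, 5′ to 3′ on the strand of the gene, with GTGGGAA or its reverse complement TTCCCAC in capitals. The windows are chr4:154960673-154960922 (+) for Hes5, chr10:30842784-30843033 (-) for Hey2, chr11:69120203-69120452 (+) for Hes7 and chr1:91413223-91413472 (-) for Hes6, the nearer to the gene body of its 2 listed starts.
Hes5: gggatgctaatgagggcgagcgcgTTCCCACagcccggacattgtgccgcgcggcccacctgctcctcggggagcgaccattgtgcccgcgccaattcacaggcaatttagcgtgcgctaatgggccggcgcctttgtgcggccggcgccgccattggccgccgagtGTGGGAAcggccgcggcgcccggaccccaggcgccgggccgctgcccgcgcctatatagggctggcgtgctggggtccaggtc
Hey2: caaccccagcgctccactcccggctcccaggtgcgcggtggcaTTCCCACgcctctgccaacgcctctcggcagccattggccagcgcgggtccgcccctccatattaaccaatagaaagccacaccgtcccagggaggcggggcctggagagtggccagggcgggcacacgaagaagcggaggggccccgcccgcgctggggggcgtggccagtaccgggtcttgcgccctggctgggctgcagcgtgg
Hes7: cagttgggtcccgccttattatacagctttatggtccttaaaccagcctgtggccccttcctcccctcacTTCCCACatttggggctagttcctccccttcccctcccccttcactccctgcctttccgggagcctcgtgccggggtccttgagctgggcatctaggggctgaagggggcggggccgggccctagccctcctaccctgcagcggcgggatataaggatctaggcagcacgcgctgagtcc
Hes6: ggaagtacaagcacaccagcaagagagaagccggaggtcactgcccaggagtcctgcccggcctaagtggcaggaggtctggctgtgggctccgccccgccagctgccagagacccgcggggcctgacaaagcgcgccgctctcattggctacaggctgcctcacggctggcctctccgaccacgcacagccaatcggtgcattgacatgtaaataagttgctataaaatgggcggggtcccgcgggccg

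In these windows Hes5 held 2 copies of the RBPJ core, from 226 to 220 and from 83 to 77 bases before the start, in opposite orientations. Hey2 held 1 copy, from 207 to 201 bases before the start, and so did Hes7, from 180 to 174, although Hes7 was near 0 in both cell types. Neither Hes6 window held one, and Hes6 rose. Of 32851 windows of the same length, 5.42% held at least 1 copy on either strand and 0.161% held at least 2. The sites that Hes and Hey proteins are known to bind were searched as well: the N box CACNAG, in 36.7% of all windows, and the class C E box CACGNG, in 23.5%, both on either strand, where CACGAG counts as both. Hes5 and Hey2 held neither, the printed Hes6 window held 1 N box, and Hes7 held 1 N box and 2 class C E boxes, of which 1 is the same stretch. A match of letters is a description and not a binding site.

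Of 45 listed genes of the pathway 40 were tested in exons, and 20 rose and 7 fell in the authors' deposited table, with a median log2 fold change of 0.87 against -0.07 over all genes, of which 32.3% rose and 33.9% fell. In introns 12 of 32 rose and 3 fell in limma, where 13.2% of all tested genes rose and 34.0% fell. Among the receptors Notch4 had no exon value under its symbol. The other receptors were the most uniform list: Notch1 was at 15.5 and 112 RPKM in ESC and NPC exons, Notch2 at 10.3 and 91.0, and Notch3 at 4.74 and 12.5. All 3 rose in exons, with log2 fold changes of 2.73, 3.02 and 1.29 in the authors' deposited table, and in introns by limma (log2 fold changes of 1.44, 1.59 and 0.57, adjusted p = 0.0409, 0.000550 and 0.0283).

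Of the 4 tested ligands, 2 rose and 1 fell. Dll1, the main Delta ligand of neural progenitors, went from 7.09 to 92.7 RPKM and Dll3, which acts on Notch in the same cell, from 0.871 to 9.01. Jag2 fell from 6.73 to 0.272 RPKM. Jag1 was at 13.4 and 15.3 RPKM and did not pass (adjusted p = 0.939 in the authors' deposited table). Among 16 tested genes that modify, cut or traffic receptors and ligands, 9 rose and 1 fell. The glycosyltransferase Lfng was at 0.961 and 30.3 RPKM, the gamma-secretase subunit Aph1b at 0.613 and 15.8, the sheddase Adam10 at 9.19 and 92.0, and the ubiquitin ligase Mib1, which acts on ligands, at 50.3 and 342.

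Of 7 tested genes of the nuclear complex 2 rose and 2 fell, shares close to those over all genes. The coactivators Maml2 (0.445 and 28.8 RPKM) and Maml3 (0.452 and 8.39) rose, while Rbpj, the DNA-binding partner of Notch, fell from 25.8 to 7.82 and the acetyltransferase Kat2a from 33.1 to 11.9. Of 10 inhibitors and turnover genes 4 rose and 3 fell. They include Nrarp (2.48 and 35.7 RPKM), itself a Notch target that limits the pathway, and the Deltex genes Dtx4 (1.63 and 50.3), Dtx3 (12.7 and 66.3) and Dtx1 (5.83 and 1.84).

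The corepressors that Hes and Hey proteins can recruit moved in both directions, as all genes did: 4 rose and 5 fell of 10 tested, against 32.3% and 33.9% over all genes, with a median log2 fold change of -0.31. Tle2, of the Groucho family, went from 0.203 to 11.5 RPKM, whereas Tle4 of the same family fell from 69.6 to 17.7. The deacetylase Sirt1 fell from 177 to 31.1 RPKM. Of the other repressors with an Orange domain, Bhlhe40 rose from 52.6 to 135 RPKM, and Bhlhe41 was at 5.42 and 11.4 (adjusted p = 0.0604 in the authors' deposited table). In introns both rose, with limma log2 fold changes of 2.84 and 1.00 (adjusted p = 0.00890 and 0.00276). Hes2 and Helt stayed below 1 RPKM and did not pass the filter on the mean.

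**Figure D4:**
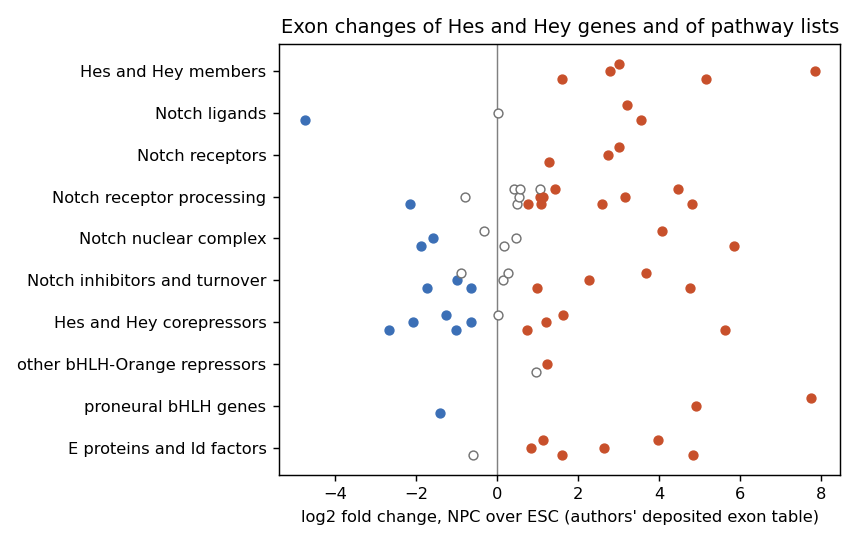
Log2 fold changes, NPC over ESC, of the tested members and of the tested genes of each list in the authors' deposited exon table, 1 point per gene, with called genes filled, others open and small vertical offsets only for legibility. All 5 tested Hes and Hey genes and all 3 tested receptors lie to the right of 0, while the nuclear complex, inhibitors and corepressors lie on both sides.

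The genes with the most similar levels were sought among 11997 others, by the Euclidean distance over 6 values, the log2(RPKM + 1) exon levels of both cell types and intron levels of the 4 replicates. Nearest to Hes1 were Itm2b, at a distance of 1.58, and Cyr61, at 1.96, and nearest to Hey1 were Aldoc (1.52) and Egr1 (2.13). Nearest to Hes5 were Ptgds (0.861) and Hoxa9 (1.02), nearest to Hes6 were Acadl (1.07) and Chd7 (1.15), and nearest to Hey2 were Meis3 (0.330) and Lrp8 (0.454). These pairs are described by their levels alone.

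The study concerns the folding of chromosomes into domains, so the genes around each member were listed by start site within 500 kb on the mm9 coordinates of the exon table. Of 113 distinct neighbours 76 were tested, and 23 rose (30.3%) and 22 fell, against 32.3% and 33.9% over all genes. None of the 3 tested neighbours of Hey1 and none of the 4 of Hey2 rose, with 2 and 1 lower. Around Hes1, 1 of 3 rose and 1 fell, and around Hes6 3 of 10 rose and 2 fell. Around Hes5, 1 of 7 rose and 1 fell. Pank4, whose start lies 3.21 kb from that of Hes5, was at 13.5 and 12.5 RPKM (adjusted p = 0.599 in the authors' deposited table). Around members that stayed low, 5 of 15 rose and 7 fell near Hes3. Near Hes7 9 of 24 rose and 6 fell, and near Heyl 4 of 10 rose and 2 fell. Gpr153, 17.3 kb from Hes3, rose from 1.17 to 21.6 RPKM, and Per1 and Vamp2, 25.2 and 31.9 kb from Hes7, rose from 5.65 to 16.2 and from 4.16 to 15.3. The neighbours named here were picked after their values were seen.

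**Figure D5:**
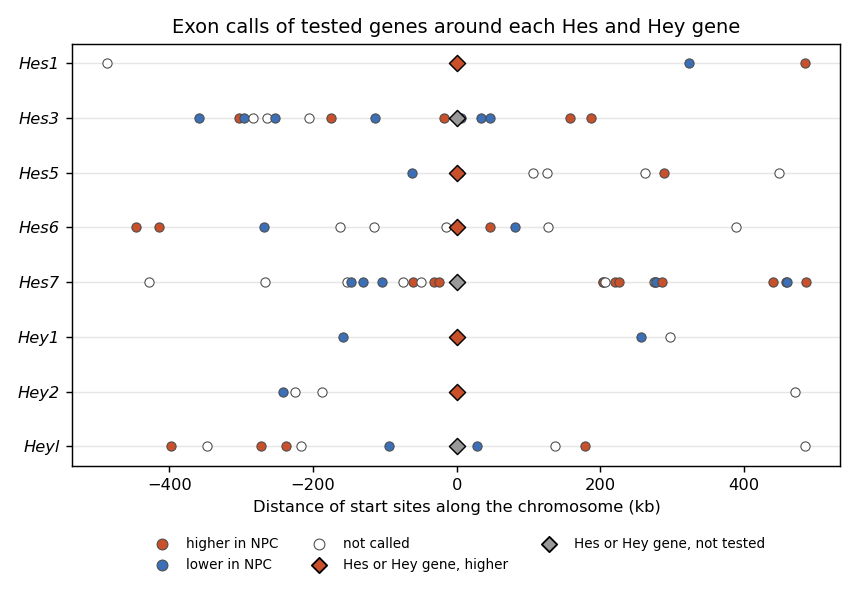
Tested genes within 500 kb of each Hes and Hey gene by the distance of start sites (horizontal, kb), red where higher and blue where lower in NPC exons and white where not called, with a diamond for the member itself that covers the closest points. Of 76 distinct tested neighbours 23 were higher and 22 lower, and no red neighbour stands beside Hey1 or Hey2.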

How the data were processed

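The authors deposited 2 tables: exon values per gene, with RPKM pooled per cell type, a log2 fold change and an adjusted p-value of their own comparison, and intron RPKM per biological replicate. The submitters' processing notes list DESeq2 1.10.0 and build mm9. Aligner, counter, annotation, strand: not given in the sources used here. For introns, the unit was inferred from the values, which are whole multiples (tolerance 0.001 reads) of the value of 1 read, given intron length and column denominators of 5186790 to 6500767 reads; where several lengths solved a gene the largest was taken. All 18393 named intron genes above 0 came back as whole reads. Rows without a gene name, 84 in the exon and 64 in the intron table, were left out.

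Introns with a mean of at least 1 RPKM were tested with limma 3.58.1 in R 4.3.3 (mean-variance trend, log2(RPKM + 1), Benjamini-Hochberg adjustment, threshold 0.05). The test was checked on simulated data with a fixed spread and no shift between replicates. That setting does not cover the difference between the NPC replicates described above. The limma p-values measure the spread of 2 against 2 biological replicates. Exon calls were read as deposited where a gene averaged 1 RPKM or more and had an adjusted p. Members and lists were chosen with earlier results of these data known. All members were named, and of each list at most 4 called genes by size of change; nearest genes were 2 per tested member. Some listed genes are not reported here.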

Additional observations from a re-analysis of the deposited data

How the results depend on the processing

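In exons, 5 members were called without a filter on the mean and 4 with a mean of at least 10 RPKM, which leaves Hey2 out; over all genes the count was 5473 of 8057 at that filter, against 8277. In introns, all 5 members were called with pseudocounts of 0.1 and 0.5, a minimum mean of 0.5, the trend off, scaled columns and limma voom on recovered reads (chosen after seeing the data), which called 3709 genes in all. Without a filter 2 members and 1166 of all genes were called. Leaving out each replicate in turn gave 2 to 5 members and 1594 to 6574 genes, against 5 and 4165; both lower values came without ESC replicate 2, without ESC replicate 1 they were 3 and 1686, and 6574 came without NPC replicate 2. A lone replicate is then assumed to vary like the other group. No member reversed: intron log2 fold changes ranged from 2.99 to 4.62 for Hes1, 3.78 to 7.28 for Hes5, 1.78 to 4.17 for Hes6, 4.65 to 6.43 for Hey1 and 1.14 to 3.34 for Hey2. With the replicate block, 5 members and 3777 genes were called; the labels do not tie equal numbers together, and the deviations of equal numbers correlated at 0.0190. Among the tested members Hes6 and Hes5 had the fewest intron reads over the 4 replicates, 12 and 30, and the untested Hes7 and Hes3 had 8 and 20.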

Other observations

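Neurog2, a proneural factor of the dorsal brain and of the kind Hes proteins are known to repress, was at 0.0464 RPKM in ESC exons and 2.01 in NPC exons and rose in the authors' deposited table. Neurod1, a factor of differentiating neurons, fell from 5.98 to 2.57 RPKM in the same table.

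E proteins are dimer partners of proneural factors, and Id proteins bind E proteins and block them. Of 7 tested E protein and Id genes 6 rose and none fell in the authors' deposited table, where their log2 fold changes had a median of 1.60, against -0.07 over all genes, and 5 of 7 rose in introns by limma. Tcf4 was at 9.72 and 312 RPKM, Tcf12 at 10.7 and 182, Id2 at 26.5 and 183 and Id3 at 54.7 and 179. Id1 was at 80.4 and 57.8 RPKM (adjusted p = 0.0831 in the authors' deposited table).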
